A study of Rattus norvegicus with 18 samples.

Results

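Inflammatory genes, 10 in number, were followed in rat cortical neuroglial cultures exposed to excess glutamate. They are the cytokines Il6, Il1b, Tnf and Lif, the chemokines Ccl2, Cxcl1 and Cxcl10, and the NF-kB target genes Ptgs2, Nfkbia and Icam1. The genes were picked by name as well-known members of this response, with earlier results of these data known. Shares of them set beside those of all genes are therefore descriptions. All 10 of 10 names were found among the 31463 rows of the count tables. Of these, 9 passed the filter on low counts and were among the 14398 genes tested. Tnf did not pass and is given by its counts alone.

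RNA was sequenced from 18 libraries of primary cultures of newborn rat cortex, with 3 libraries in each of 6 groups, taken at day 10 in vitro and 4 h after the glutamate model was run. Control cultures received no glutamate, Glutamate cultures received 100 µM glutamate, and Memantine cultures received 100 µM memantine, a blocker of NMDA-type glutamate receptors. The Memantine label does not itself name glutamate, which the series text places in that group. Glutamate_vesicles, Glutamate_secret and Glutamate_BPC received glutamate after secreted material of glial progenitor cells had been added the day before. The first of these preparations was extracellular vesicles, whereas for Glutamate_secret and Glutamate_BPC the labels leave unsaid whether each was the protein fraction or the total secretome, so both names are used as given. The progenitor cells were derived from human induced pluripotent stem cells of 1 donor, and the rat cultures were treated with cytosine arabinoside, which limits the division of glia. Libraries are named by group and replicate number, as in Control 1. The labels do not say whether the replicates were separate cultures. The study's methods speak in general of repeats on unrelated cells, and its supplement removes a day effect before clustering, but neither is tied to the library numbers. The p-values measure the spread between these libraries, of which some may be technical.

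NF-kB is a family of transcription factors held in the cytoplasm by inhibitor proteins, of which Nfkbia encodes the best known, IκBα. Cytokines such as TNF and interleukin 1 beta, or cell damage, lead to breakdown of the inhibitor, and the released factor enters the nucleus and switches on cytokines, chemokines, adhesion molecules and its own inhibitor. In brain cultures, microglia and astrocytes are the usual sources of these cytokines and chemokines, while Ptgs2, the inducible cyclooxygenase COX-2, is also made by active excitatory neurons.

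RefSeq promoter sequences of the rat assembly GRCr8, each with 250 bases before and 50 bases after the annotated gene start, were found for 8 of the 10 genes. Lif and Ccl2 were not matched. The NF-kB consensus motif was searched on both strands, and 4 of the 8 promoters held it, against 4.18% (1400 of 33469) of all promoters of the same length. The stretches around the motif are shown because NF-kB is what these genes have in common by name, with the matched bases in capitals and the gene's own strand read 5′ to 3′. The Cxcl1 stretch is chr14:17479345-17479455 on the minus strand, where overlapping matches on both strands begin 84 and 83 bases before the start. The Cxcl10 stretch is chr14:15988829-15988938 on the plus strand, with the match beginning 187 bases before the start. The Il6 stretch is chr4:5894584-5894693 on the minus strand, with the match beginning 68 bases before the start. The Nfkbia stretch is chr6:78597044-78597153 on the minus strand, with a match in reverse orientation that begins 31 bases before the start.
Cxcl1: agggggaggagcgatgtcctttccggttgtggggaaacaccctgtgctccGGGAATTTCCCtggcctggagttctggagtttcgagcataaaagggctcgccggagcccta
Cxcl10: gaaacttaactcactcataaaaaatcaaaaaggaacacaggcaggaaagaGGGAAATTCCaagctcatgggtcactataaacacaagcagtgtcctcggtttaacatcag
Il6: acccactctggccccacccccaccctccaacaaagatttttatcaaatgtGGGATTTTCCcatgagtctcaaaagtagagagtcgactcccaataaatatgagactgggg
Nfkbia: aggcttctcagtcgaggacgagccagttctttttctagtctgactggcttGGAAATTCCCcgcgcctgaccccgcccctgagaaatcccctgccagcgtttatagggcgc

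The search covered other motifs of inducible promoters on both strands. Cxcl10 also held the AP-1 motif TGANTCA, present in 7.33% of promoters, and an interferon-response motif (ISRE), here GAAA and GAAA with NN between them, present in 3.92%. Il6 held the cAMP-response motif TGACGTCA, present in 1.83%. TATAAA, present in 14.2% of promoters, occurred in Cxcl10, Icam1, Il1b and Tnf, and in Nfkbia in reverse orientation after the start. These matches describe letters in the window and not bound sites.

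Control 1 had the fewest counts, 8409574, and Glutamate_vesicles 2 the most, 17206354, and the share of counts on ribosomal RNA (rRNA) rows ranged from 3.04% in Glutamate_secret 2 to 43.0% in Control 1. The first principal component of expression, with 53.7% of the variance, placed all libraries of replicate number 1 on one side and all of number 2 on the other, with number 3 on both. All 7 neuronal markers were counted in every library. Their summed level was 1914 to 2603 CPM in Control and 540.2 to 1050 CPM in Glutamate. It was 3018 and 2055 CPM in Memantine 1 and 2 but 598.5 CPM in Memantine 3, which therefore stood apart from its group. CPM relates the count of a gene to the total of its library, corrected here with TMM factors, which allow for a few genes taking up many counts. In RNA of a whole culture, fewer cells of a type and less RNA per cell cannot be told apart. A count of 0 was taken to allow up to 3 counts, which corresponded to 0.857 CPM in Control 1, the highest limit of all libraries, and to 0.120 CPM in Glutamate_vesicles 2, the lowest. These limits cover counting error only.

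None of the 9 inflammatory genes passed the main test. Over 9 comparisons of groups, 0 of 81 tests of single genes reached an adjusted p below 0.05 in edgeR's quasi-likelihood test with Benjamini-Hochberg adjustment over all genes. An unadjusted p below 0.05 was found in 21 tests, DESeq2 called 5 tests and gave no adjusted p in 8, and 1 was called by edgeR's likelihood-ratio version, which called 0% to 1.55% of all genes per comparison. The smallest adjusted p was 0.161, for Ccl2 in Glutamate_vesicles against Control. Differences below are therefore given with their values, and the words higher and lower describe these libraries.

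For Glutamate against Control, an unadjusted p below 0.05 was found for 4 of the 9 genes, against 8.11% of all genes tested, with Ccl2, Lif and Icam1 higher and Ptgs2 lower. The ranges of Control and Glutamate did not overlap for 4 genes (Lif, Cxcl1 and Icam1 higher, Ptgs2 lower), against 12.2% of all genes, 4.48% higher and 7.76% lower. The median log2 fold change of the 9 genes was 1.40, and that of all genes was 0.08. DESeq2 called Ccl2 (adjusted p = 0.0258) and 1.61% of all genes. In the same comparison edgeR called 0% of all genes.

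For Memantine against Glutamate, 2 of the 9 genes had an unadjusted p below 0.05, against 5.08% of all genes, with Ccl2 lower and Ptgs2 higher. Ranges did not overlap for Ptgs2 (higher) and Cxcl1 (lower), against 2.86% of all genes, 1.74% higher and 1.13% lower. For Glutamate_vesicles against Glutamate the corresponding counts were 1 gene (Ccl2, higher) against 1.08%, and 1 gene without overlap (Cxcl1, higher) against 6.27%, 2.89% higher and 3.38% lower. For Glutamate_secret against Glutamate no gene had an unadjusted p below 0.05, against 0.681%, and no ranges were separate, against 3.41%, 1.4% higher and 2.01% lower. For Glutamate_BPC against Glutamate both counts were again 0, against 1.07% and 7.13% of all genes, the latter 2.88% higher and 4.24% lower. DESeq2 called none of the 9 genes in these 4 comparisons with Glutamate, and 0% to 0.0208% of all genes. The median log2 fold changes of the 9 genes against Glutamate were -0.47 for Memantine, then 0.05 for Glutamate_vesicles, -0.18 for Glutamate_secret and 0.25 for Glutamate_BPC, with medians of all genes between -0.05 and -0.01.

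Each treated group was also compared with Control, whose 3 libraries these comparisons share with Glutamate against Control. An unadjusted p below 0.05 was found for 5 of the 9 genes in Glutamate_vesicles (11.6% of all genes), 3 in Glutamate_secret (11.8%), 6 in Glutamate_BPC (11.3%) and 0 in Memantine (1.12%). Il6 was among those in Glutamate_secret and Glutamate_BPC, and it passed the filter only with replicate 2 of each of these groups. Its part in their counts, here and for the ranges, is not taken as support. Ranges apart from Control were seen for 5 genes in Glutamate_vesicles, 4 higher and 1 lower, against 19.5% of all genes (9.72% and 9.83%). They were seen for 3 genes in Glutamate_secret, 2 higher (Ccl2 and Il6) and 1 lower (Ptgs2), against 15.9% (6.88% and 9.07%). In Glutamate_BPC they were seen for 3 genes, 2 higher (Ccl2 and Icam1) and 1 lower (Ptgs2), against 24.9% (12.2% and 12.7%). In Memantine they were seen for Il6 and Lif, both higher, against 2.35% (1.16% and 1.19%). For Il6 the Control range includes counts of 0 in Control 1 and Control 3. A count of 0 in Control 1 allows up to 0.857 CPM, above Il6 in every Memantine library (0.2156 to 0.4295 CPM). That limit also lies above Il6 in Glutamate_secret 3 (0.543 CPM), so the ranges of Il6 cannot be called apart in either group. Adjusted p-values of edgeR called 0.0139% of all genes in Glutamate_vesicles against Control, and none of the 9 genes was among them. DESeq2 called Ccl2 and Lif in Glutamate_vesicles (3.44% of all genes), Ccl2 alone in Glutamate_secret (3.12%) and in Glutamate_BPC (1.78%), and none of the 9 genes in Memantine (0%).

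**Figure D1:**
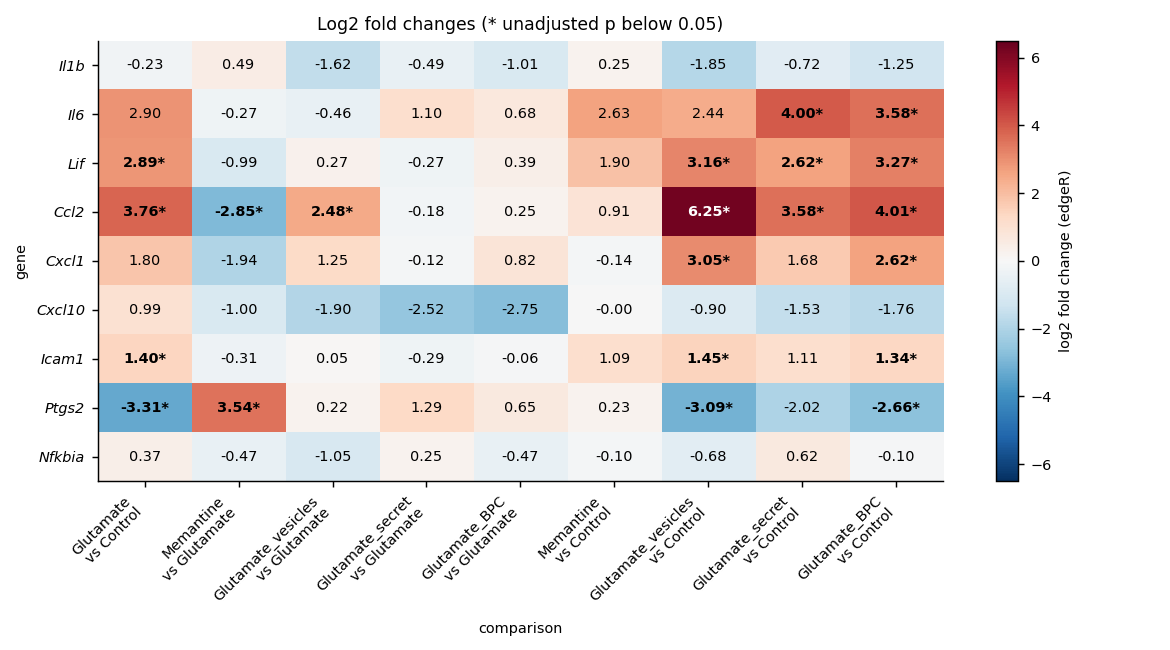
Log2 fold change of the 9 tested genes (rows) in 9 comparisons of groups (columns), from edgeR, with colour and printed number giving the same value and an asterisk marking an unadjusted p below 0.05. Ccl2 had the highest value, 6.25 in Glutamate_vesicles against Control, and Ptgs2 was negative in Glutamate and the 3 preparation groups against Control.

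Ccl2 encodes the chemokine MCP-1, which draws monocytes and microglia to damaged tissue. Control 1, 2 and 3 had 1.71, 0.245 and 5.28 CPM, and Glutamate 1, 2 and 3 had 84.5, 4.825 and 11.97 CPM. Memantine 1, 2 and 3 had 3.01, 1.67 and 9.27 CPM. The Memantine libraries overlapped with Control, and Glutamate overlapped with both through Glutamate 2. Glutamate_vesicles 1, 2 and 3 had 95.3, 83.25 and 386 CPM. Glutamate_secret 1, 2 and 3 had 38.0, 31.3 and 19.55 CPM, and Glutamate_BPC 1, 2 and 3 had 49.35, 58.5 and 12.04 CPM. All 9 libraries with a preparation lay above the highest Control library, and the lowest Glutamate_vesicles library lay above every library of Glutamate_secret and Glutamate_BPC. Only Glutamate 1 joined the range of Glutamate_vesicles from outside that group.

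The mean Ccl2 level was 188 ± 172 CPM (SD) in Glutamate_vesicles, 40.0 ± 24.6 in Glutamate_BPC, 33.8 ± 44.1 in Glutamate, 29.6 ± 9.32 in Glutamate_secret, 4.65 ± 4.06 in Memantine and 2.41 ± 2.59 in Control. In this order, Glutamate_BPC, Glutamate and Glutamate_secret overlapped as neighbours, as did Memantine and Control. An F test of edgeR for any difference among the 6 groups gave an unadjusted p = 0.000711 and adjusted p = 0.134 for Ccl2, and it called 0.00695% of all genes. The likelihood-ratio version gave adjusted p = 1.6e-05 for Ccl2 and called 4.08% of all genes.

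Against Control, the Ccl2 log2 fold change in Glutamate_vesicles was 6.25 (SE 1.32), a fold of 75.9, with unadjusted p = 0.000234 and adjusted p = 0.161 in edgeR's quasi-likelihood test, the 17th smallest p of the comparison. In this comparison libraries of the same number deviated together, and with the replicate number as a block the value was 6.34 with adjusted p = 0.0233 in edgeR. That pairing was read from these data and not from the labels. The block was fitted over all groups, although libraries of the same number did not deviate together in every comparison. The rRNA share was at least 13.4% in libraries of number 1 and at most 8.15% in those of number 2. The Ccl2 difference was 5.68, 7.73 and 6.15 on the log2 scale between libraries of number 1, 2 and 3. DESeq2 gave an adjusted p of 3.27e-06 and the likelihood-ratio test 0.00225 for Ccl2 here (1.11% of all genes called). Over 13 alternatives the fold change ran from 5.18, without Glutamate_vesicles 3, to 7.99, without Control 3, and the adjusted p from 3.27e-06 to 0.712. Without Control 1 it was 6.09 with an adjusted p of 0.29 in edgeR.

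Glutamate alone gave a Ccl2 log2 fold change of 3.76 (SE 1.18) against Control, with unadjusted p = 0.00595 and adjusted p = 0.336 in edgeR. This Ccl2 difference was 5.51, 3.66 and 1.16 within numbers 1, 2 and 3, and it was 1.76 without Glutamate 1. Libraries of number 3 did not deviate together in Glutamate against Control, so matching by number is a description only. Glutamate_secret and Glutamate_BPC gave Ccl2 values of 3.58 and 4.01 against Control, with adjusted p = 0.236 and 0.295 in edgeR and 0.0217 and 0.0173 in DESeq2. Against Glutamate their Ccl2 values were -0.18 (95% interval -2.46 to 2.09) and 0.25 (-2.02 to 2.52), intervals that include a log2 difference of 2 in either direction. Memantine had a Ccl2 value of -2.85 (SE 1.12) against Glutamate, with unadjusted p = 0.0221 and adjusted p = 0.728 in edgeR, lower in 3 of 3 numbers. That Ccl2 value became -0.85 without Glutamate 1 and -3.86 without Memantine 3.

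Glutamate_vesicles exceeded Glutamate by 2.48 (SE 1.10) on the log2 scale for Ccl2, with unadjusted p = 0.0379 and adjusted p = 1 in edgeR. Ccl2 was higher with vesicles in 3 of 3 numbers, by 0.17, 4.07 and 5, although libraries of number 3 did not deviate together in this comparison. A single library set much of this value, which was 4.49 without Glutamate 1 and 1.41 without Glutamate_vesicles 3. Summed fibroblast and mural cell markers, of which 3 of 7 passed the filter, were at 11.1 to 18.2 CPM in Glutamate_vesicles, 5.68 to 11.9 CPM in Glutamate and 3.71 to 10.45 CPM in Control. They were at 6.14 to 19.5 CPM in Glutamate_secret and 9.96 to 13.6 CPM in Glutamate_BPC, which both overlapped with Glutamate_vesicles, and at 7.84 to 10.3 CPM in Memantine. Among them Rgs5 had no count in 16 libraries and Dcn in 12. Oligodendrocyte-lineage markers, with 7 of 7 tested, summed to 374.3 to 665.2 CPM in Control, 734.6 to 973.8 in Glutamate and 880.2 to 1397 in Glutamate_vesicles, and to 375.3 to 778.2 in Memantine. They were at 677.2 to 1312 CPM in Glutamate_secret and at 750.5 to 1162 CPM in Glutamate_BPC, so that only Memantine overlapped with Control. Astrocyte markers, with 8 of 8 tested, summed to 2954 to 6399 CPM in Control, 5676 to 11340 in Glutamate, 3713 to 10970 in Memantine and 3478 to 7107 in Glutamate_vesicles, which all overlapped. They were at 5820 to 8924 CPM in Glutamate_secret and 7518 to 13240 CPM in Glutamate_BPC. The part of these markers in the values of Ccl2, and of Lif, Cxcl1 and Icam1 below, was not tested.

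**Figure D2:**
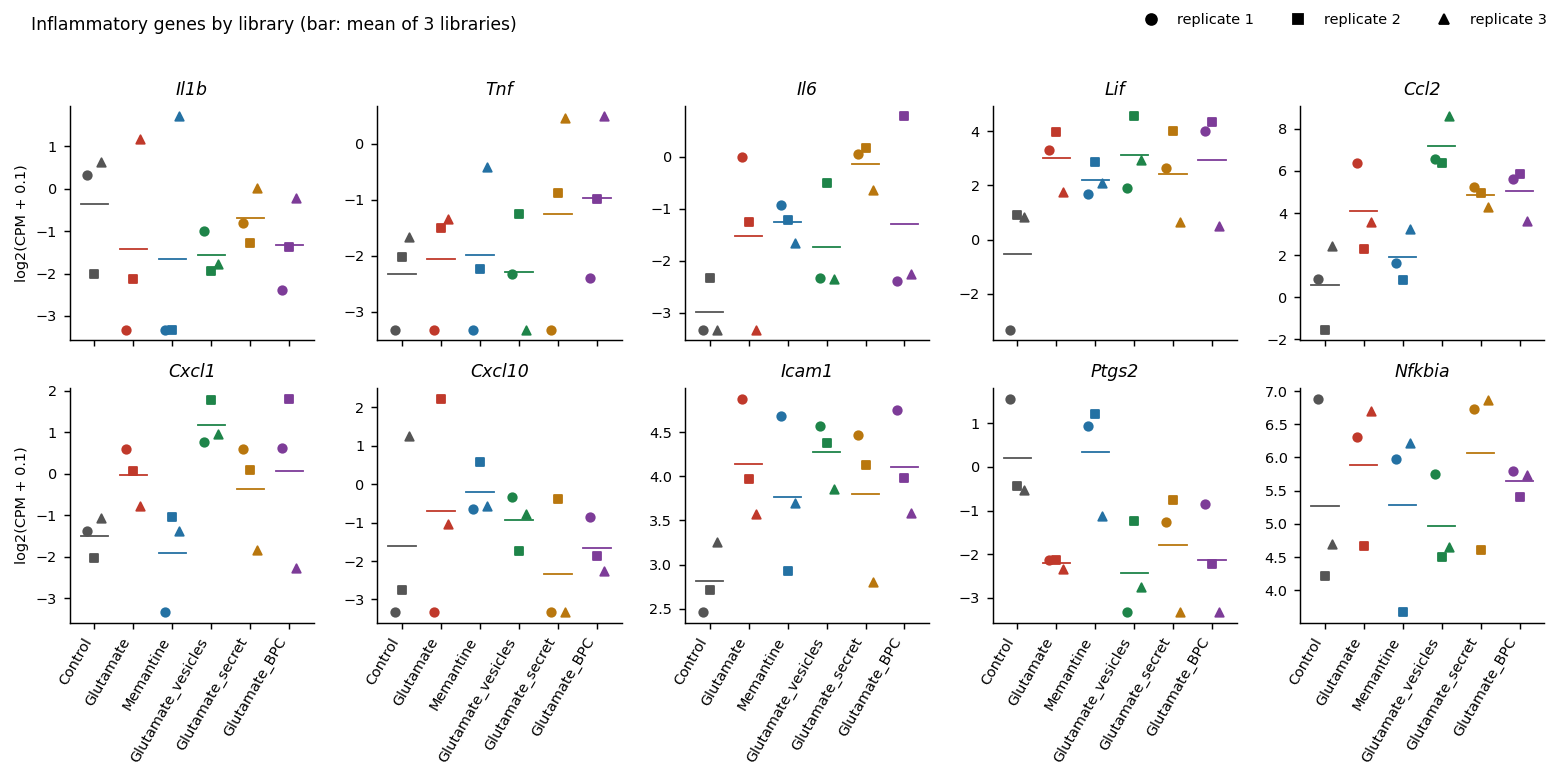
Level of each of the 10 genes as log2(CPM + 0.1), 1 point per library with symbols for replicate numbers, 6 groups in colours, and a bar at the mean of the plotted values of each group. Points at the lowest edge, near -3.3, are libraries with no count. All Ccl2 points of Glutamate_vesicles lie above those of Control, and the Ptgs2 points of Glutamate lie below those of Control and Memantine.

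Cxcl1 encodes a chemokine for neutrophils. It was sparse, with 298 counts over all libraries. Its levels were 0.286, 0.147 and 0.377 CPM in Control 1, 2 and 3, 1.42, 0.952 and 0.486 CPM in Glutamate 1, 2 and 3, and 0, 0.389 and 0.287 CPM in Memantine 1, 2 and 3. All Glutamate libraries lay above all Control and Memantine libraries. Glutamate_vesicles 1, 2 and 3 had 1.595, 3.33 and 1.85 CPM, all above the Glutamate libraries. Glutamate_secret and Glutamate_BPC ranged from 0.181 to 1.42 CPM and from 0.1085 to 3.40 CPM, with replicate 3 lowest in both. The Cxcl1 log2 fold change was 1.80 in Glutamate against Control (unadjusted p = 0.113 in edgeR), -1.94 in Memantine against Glutamate (unadjusted p = 0.0817) and 1.25 in Glutamate_vesicles against Glutamate (unadjusted p = 0.213). Against Control, Cxcl1 was at 3.05 in Glutamate_vesicles (unadjusted p = 0.0123, adjusted p = 0.279 in edgeR), 2.62 in Glutamate_BPC (adjusted p = 0.367) and 1.68 in Glutamate_secret (adjusted p = 0.598). Without Glutamate_BPC 2 the Cxcl1 value of Glutamate_BPC was 1.54.

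Cxcl10 encodes an interferon-inducible chemokine for T cells. No group stood apart, and 4 of 18 libraries had no Cxcl10 count. The highest levels were 4.57 CPM in Glutamate 2 and 2.26 CPM in Control 3, and the next libraries of these groups were at 0.389 CPM (Glutamate 3) and 0.0491 CPM (Control 2). The Memantine libraries ranged from 0.537 to 1.39 CPM, Glutamate_vesicles from 0.201 to 0.698, Glutamate_secret from 0 to 0.664 and Glutamate_BPC from 0.1085 to 0.453. The smallest unadjusted p of Cxcl10 in edgeR was 0.0996, for a log2 fold change of -2.75 in Glutamate_BPC against Glutamate (adjusted p = 1), and without Glutamate 2 the value was 0.23.

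Lif, leukaemia inhibitory factor, is a cytokine of the interleukin 6 family that acts on astrocytes and neurons. Control 1, 2 and 3 had 0, 1.77 and 1.67 CPM, and Glutamate 1, 2 and 3 had 9.69, 15.5 and 3.31 CPM. Memantine 1, 2 and 3 had 3.11, 7.11 and 4.10 CPM. Every Glutamate and Memantine library lay above every Control library, and these 2 treated groups overlapped. Glutamate_vesicles 1, 2 and 3 had 3.59, 23.15 and 7.58 CPM, also above Control. Glutamate_secret 1, 2 and 3 had 6.14, 15.75 and 1.45 CPM, and Glutamate_BPC 1, 2 and 3 had 15.85, 20.1 and 1.30 CPM, so that replicate 3 of both fell into the Control range.

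In edgeR the Lif log2 fold change was 2.89 (SE 1.10) in Glutamate against Control, with unadjusted p = 0.0182 and adjusted p = 0.45. Against Control it reached 3.27 in Glutamate_BPC, 3.16 in Glutamate_vesicles, 2.62 in Glutamate_secret and 1.90 in Memantine, with adjusted p-values of edgeR from 0.276 to 1. DESeq2 called Lif in Glutamate_vesicles against Control only (adjusted p = 0.044), with 0.0522 in Glutamate_BPC. Without Glutamate_secret 2 the Lif value of Glutamate_secret against Control was 1.56. Lif differed from Glutamate by -0.99 in Memantine (95% interval -3.20 to 1.23) and by -0.27 to 0.39 in the 3 preparation groups, with adjusted p of 0.999 or 1 in edgeR. Within numbers 2 and 3, Lif was higher in Glutamate than in Control by 3.03 and 0.93 on the log2 scale. Control 1 had no Lif count, so that no difference is given for number 1.

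Il6, the interleukin 6 gene, was close to the detection limit with 107 counts over 18 libraries. Control 1, 2 and 3 had 0, 2 and 0 counts, and Glutamate 1, 2 and 3 had 7, 5 and 0 counts. Memantine had 4, 6 and 3 counts, Glutamate_vesicles 1, 15 and 2, Glutamate_secret 6, 23 and 3, and Glutamate_BPC 1, 28 and 1, each in the order of replicates 1, 2 and 3. Replicate 2 held the most counts in Control, Memantine and all 3 preparation groups. Scaled for depth, the sum of counts was 7.54 times that of Control in Glutamate (95% counting interval 1.68 to 69.4), 6.69 times in Memantine (1.52 to 61.1) and 6.88 times in Glutamate_vesicles (1.65 to 61.1). It was 19.7 times in Glutamate_secret (5.03 to 170) and 16.9 times in Glutamate_BPC (4.30 to 146). The Control sum came from Control 2 alone, without which Control had no Il6 count and no ratio could be given. In edgeR, the log2 fold change of Il6 against Control was 2.90 in Glutamate and 1.76 without Glutamate 1, and it was 2.44 in Glutamate_vesicles and 1.002 without Glutamate_vesicles 2. Without Glutamate_secret 2 or Glutamate_BPC 2, Il6 did not pass the filter. The intervals given for the ratios are exact binomial ones that leave out the spread between libraries, which edgeR includes. In edgeR Il6 had unadjusted p = 0.0708 in Glutamate against Control, 0.0159 in Glutamate_secret and 0.0265 in Glutamate_BPC against Control, with adjusted p = 0.695, 0.295 and 0.367. The p-values of Glutamate_secret and Glutamate_BPC come from the same libraries that let Il6 pass the filter, so they are not taken as support.

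Il1b encodes interleukin 1 beta, an early cytokine of microglia. Its 142 counts lay mostly in replicate 3 of the groups without a preparation, at 1.45 CPM in Control 3, 2.14 CPM in Glutamate 3 and 3.16 CPM in Memantine 3. Control 1 had 1.14 CPM from 4 counts, and the remaining libraries of these 3 groups had 0 to 0.147 CPM. The preparation groups ranged from 0.0906 to 0.905 CPM. All 6 groups overlapped, and the unadjusted p of Il1b in edgeR was at least 0.273 in each of the 9 comparisons. The Il1b log2 fold change of Memantine against Glutamate was 0.49 and rested on Memantine 3, since Memantine 1 and 2 had no count.

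All 12 microglial and macrophage markers were tested, and their summed level in Memantine 3 (494.6 CPM) and Glutamate 3 (414.7 CPM) was above the other libraries of those groups (37.15 to 145.3 CPM). It was also high in Glutamate_secret 3 (733 CPM) and Glutamate_BPC 3 (549 CPM), where Il1b was at 0.905 and 0.759 CPM. By group the summed level ran from 48.5 to 139.5 CPM in Control, 127 to 415 in Glutamate, 37.15 to 495 in Memantine, 71.4 to 202.5 in Glutamate_vesicles, 97.5 to 733 in Glutamate_secret and 133.5 to 549 in Glutamate_BPC. Itgam, P2ry12 and Tmem119 had no count in 3, 2 and 1 libraries, and the other 9 microglial markers were counted in every library. Their part in the Il1b levels was not tested.

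Tnf, which encodes tumour necrosis factor, had 71 counts in all and none in 5 of 18 libraries. Summed over 3 libraries, Control and Glutamate had 7 Tnf counts each, Glutamate_vesicles 9, Memantine 11, Glutamate_secret 17 and Glutamate_BPC 20. The highest Tnf levels were 1.30 CPM in Glutamate_BPC 3 and 1.27 CPM in Glutamate_secret 3, from 12 and 7 counts. All groups overlapped, and Tnf, which did not pass the filter, was not tested.

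**Figure D3:**
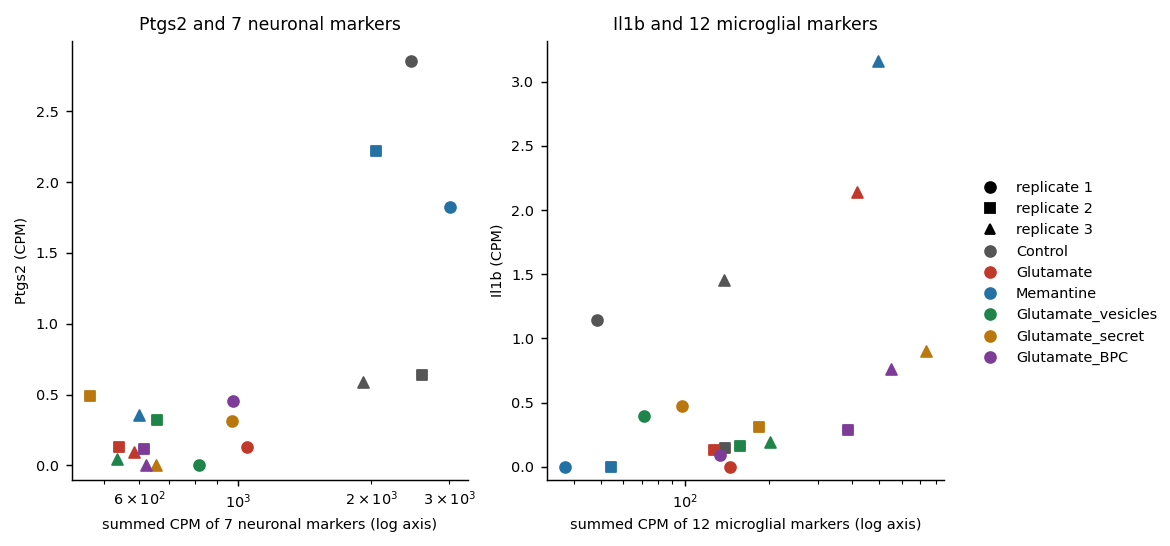
Left, Ptgs2 level (CPM) against the summed CPM of 7 neuronal markers on a log axis; right, Il1b level (CPM) against the summed CPM of 12 microglial and macrophage markers on a log axis; 1 point per library, colours for groups and symbols for replicate numbers. The 5 libraries with the highest neuronal sums, Control 1 to 3 and Memantine 1 and 2, hold the 5 highest Ptgs2 levels, and the highest Il1b level is that of Memantine 3.

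Ptgs2 makes the prostaglandin precursor from arachidonic acid. It was lower in Glutamate than in Control, opposite in direction to Ccl2, Lif, Cxcl1 and Icam1. Control 1, 2 and 3 had 2.855, 0.638 and 0.592 CPM from 10, 13 and 11 counts, while Glutamate 1, 2 and 3 had 0.129, 0.127 and 0.0973 CPM from 1, 2 and 1 counts. Memantine 1, 2 and 3 had 1.83, 2.22 and 0.359 CPM from 17, 40 and 5 counts. All Control and Memantine libraries lay above all Glutamate libraries. The Glutamate_vesicles libraries had 0, 0.321 and 0.0486 CPM, Glutamate_secret 0.315, 0.487 and 0, and Glutamate_BPC 0.453, 0.115 and 0, in the order of replicates 1, 2 and 3. All 9 of these libraries lay below the lowest Control library, and the range of each of the 3 groups overlapped with that of Glutamate.

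The edgeR log2 fold change of Ptgs2 was -3.31 (SE 1.29) in Glutamate against Control, with unadjusted p = 0.0207 and adjusted p = 0.461. It was 3.54 (SE 1.26) in Memantine against Glutamate, with unadjusted p = 0.0131 and adjusted p = 0.634. Summed and scaled for depth, Ptgs2 counts were 6.76 times as high in Control as in Glutamate (34 against 4 counts, 95% counting interval 2.41 to 26.2) and 12.7 times as high in Memantine as in Glutamate (62 against 4 counts, 4.72 to 48.1). Control was 4.94 times as high as Glutamate_vesicles (2.32 to 11.7), 2.12 times Glutamate_secret (1.09 to 4.39) and 4.30 times Glutamate_BPC (1.88 to 11.5). These intervals leave out the spread between libraries, and 40 of the 62 Memantine counts were in Memantine 2. With preparations, the Ptgs2 value against Control was -3.09 (Glutamate_vesicles), -2.02 (Glutamate_secret) and -2.66 (Glutamate_BPC), with adjusted p = 0.322, 0.55 and 0.422 in edgeR. Without Control 1 these Ptgs2 values were -2.08, -1.004 and -1.65, and the lowest values with 1 library left out were -4.975, without Glutamate_vesicles 2, -2.85, without Glutamate_secret 2, and -4.025, without Glutamate_BPC 1. For any difference among the 6 groups, Ptgs2 had unadjusted p = 0.0191 and adjusted p = 0.398 in edgeR's quasi-likelihood F test and adjusted p = 0.023 in its likelihood-ratio form. Without Control 1, the value of Ptgs2 in Glutamate against Control was -2.30 with unadjusted p = 0.0935 in edgeR, and without Memantine 3 that of Memantine against Glutamate was 4.00 with adjusted p = 0.157.

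The summed neuronal markers moved with Ptgs2. They were at 1914 to 2603 CPM in Control, at 535 to 819 CPM in Glutamate_vesicles, 464 to 972 CPM in Glutamate_secret and 614 to 976 CPM in Glutamate_BPC, beside the Glutamate and Memantine values given above. The sum rested mostly on Stmn2 and Tubb3, with means of 1268 and 703 CPM in Control and 384.5 and 173.5 CPM in Glutamate. The markers did not all move alike, since mean Map2 was 52.8 CPM in Control, 50.35 in Glutamate and 135.6 in Memantine. Memantine 3, with the lowest neuronal sum of its group, also had the lowest Ptgs2 level of its group. Their part in the Ptgs2 values was not tested.

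Icam1 encodes an adhesion molecule for leukocytes that glia and endothelium carry. It was well counted, with 5.425, 6.48 and 9.42 CPM in Control 1, 2 and 3 and 29.3, 15.6 and 11.8 CPM in Glutamate 1, 2 and 3. All Glutamate libraries lay above all Control libraries, and so did those of Glutamate_vesicles (23.6, 20.7 and 14.4 CPM) and Glutamate_BPC (26.8, 15.7 and 11.9 CPM). Memantine (25.6, 7.50 and 12.9 CPM) and Glutamate_secret (22.05, 17.4 and 6.88 CPM) each had 1 library within the Control range. The Icam1 log2 fold change against Control was 1.40 (SE 0.54) in Glutamate, 1.45 in Glutamate_vesicles, 1.34 in Glutamate_BPC, 1.11 in Glutamate_secret and 1.09 in Memantine, with adjusted p = 0.456, 0.297, 0.36, 0.44 and 1 in edgeR. Without Memantine 1 the Icam1 value of Memantine was 0.51. Against Glutamate, none of the 4 treated groups differed in Icam1 beyond the spread, with log2 differences from -0.31 to 0.05 and 95% intervals that together reached from -1.45 to 1.19. Endothelial markers were near the detection limit. Only Pecam1 passed the filter among 6 listed, Cldn5 was not found under that name, and the summed level of the list was at most 4.84 CPM in any library.

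Nfkbia, the gene of the NF-kB inhibitor, had 10515 counts over all libraries and showed no separation between groups. Control 1, 2 and 3 had 118, 18.45 and 25.8 CPM, and Glutamate 1, 2 and 3 had 79.3, 25.3 and 104 CPM. Memantine 1, 2 and 3 had 62.9, 12.7 and 74.6 CPM. The spread within these groups was larger than the differences between them. The Glutamate_vesicles libraries ranged from 22.5 to 53.5 CPM, Glutamate_secret from 24.2 to 117 CPM, and Glutamate_BPC from 42.1 to 55.2 CPM. Over the 9 comparisons the log2 fold changes of Nfkbia ran from -1.05, in Glutamate_vesicles against Glutamate (95% interval -2.75 to 0.66), to 0.62, in Glutamate_secret against Control, and no unadjusted p of edgeR was below 0.201. Libraries with a larger rRNA share, such as Control 1 (43.0%), Glutamate_secret 3 (26.6%) and Glutamate 3 (20.4%), were among the 4 with the most Nfkbia (118, 117 and 104 CPM), while Glutamate_BPC 3 (20.1%) was at 53.4 CPM. With the rRNA share in the model, the Nfkbia value of Glutamate_vesicles against Control turned from -0.68 to 0.30. The part of the rRNA share in the Nfkbia levels was not tested.

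Within libraries of the same number, the differences of Ccl2, Cxcl1 and Icam1 between Glutamate and Control were smallest in number 3. Libraries of number 3 did not deviate together in Glutamate, Glutamate_secret or Glutamate_BPC against Control, so the values by number are descriptions only. For Icam1 the differences were 2.40, 1.25 and 0.32 on the log2 scale, and for Cxcl1 they were 1.86, 1.90 and 0.27. For Ptgs2 they were -3.44, -1.52 and -1.60. Nfkbia differed in sign between numbers, with -0.58, 0.45 and 2.00. Against Control, number 3 also gave the lowest value for Ccl2, Lif, Cxcl1 and Icam1 in Glutamate_secret and Glutamate_BPC. In Glutamate_BPC, number 3 was at -0.33 for Lif and -1.04 for Cxcl1, whereas number 2 was at 3.40 for Lif, and numbers 1 and 2 were at 1.88 and 3.59 for Cxcl1.

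**Figure D4:**
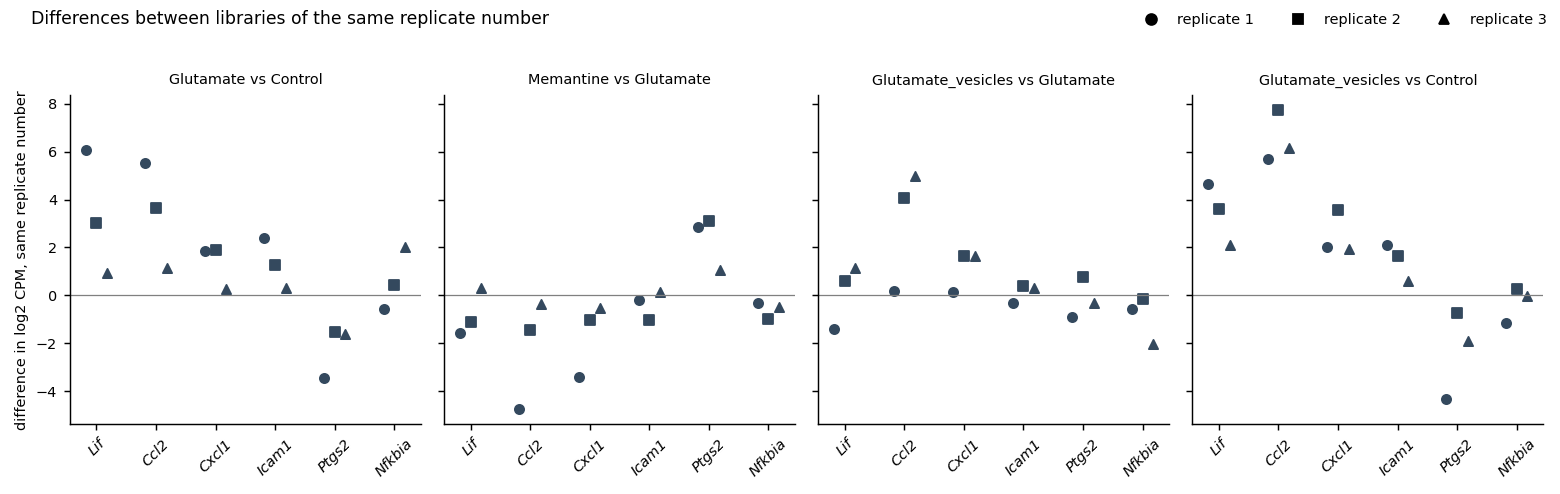
Difference in log2 CPM (prior count of 2) between libraries of the same replicate number, for 6 genes (horizontal axis) in 4 comparisons (panels), with 1 symbol per number and a line at no difference. Where a library has no count, as Control 1 for Lif, the plotted size depends on the prior count. Of these comparisons, libraries of every number deviated together only in Memantine against Glutamate and Glutamate_vesicles against Control. Ccl2 is above the line in 3 of 3 numbers for Glutamate and for Glutamate_vesicles against Control and for Glutamate_vesicles against Glutamate, and below it for Memantine against Glutamate.

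Across the 18 libraries, the Pearson correlation of log2 CPM between the genes was highest for Ccl2 and Cxcl1 (r = 0.75), Lif and Cxcl1 (0.68), Lif and Icam1 (0.67) and Ccl2 and Icam1 (0.64). Ccl2 and Ptgs2 had r = -0.63, and Cxcl10 and Nfkbia r = -0.55. These libraries share treatment, replicate number, depth and rRNA share, so that the values are descriptions only.

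Of all tested genes outside the list, the 3 with the highest r over the 18 libraries were taken for each gene. Ccl2 was most like Ccl7 (r = 0.98), a monocyte chemokine of the same family, followed by Stbd1 (0.95) and Hmga1 (0.92). Ccl7 had 0.571, 0.245 and 2.26 CPM in Control 1, 2 and 3, 27.4, 1.27 and 6.91 CPM in Glutamate 1, 2 and 3, and 44.1, 19.7 and 109.5 CPM in Glutamate_vesicles 1, 2 and 3. As for Ccl2, only Glutamate 1 reached the range of the vesicle libraries. Lif was most like F2rl1 (0.93), Errfi1 (0.93) and Adamts1 (0.92), and F2rl1 (0.82) was also among the 3 genes most like Cxcl1, with Pawr (0.87) and Pvr (0.82). Ptgs2 was most like Plcxd3 (0.89), Sstr4 (0.87), a somatostatin receptor of neurons, and Lancl2 (0.87). Icam1 was most like Rars1 (0.93), Wdr43 (0.90) and Prr5l (0.89), and Nfkbia was most like Hmgb2l1 (0.97), Ptn (0.97) and Csad (0.96). Il1b was followed by Ddo (0.89), Ccdc190 (0.86) and Nme3 (0.83), Il6 by Sacm1l (0.79), Gnl3 (0.77) and Csrnp1 (0.72), and Cxcl10 by Gbp2 (0.80), an interferon-induced GTPase, Zbtb39 (0.79) and Antxr2 (0.78).

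The other genes of the pathway were taken as 6 lists with 122 genes, also chosen with earlier results of these data known. Of these genes, 118 were in the tables and 92 passed the filter. None was called by edgeR's adjusted p in any of the 9 comparisons. In Glutamate against Control, 12 of the 92 were higher and 3 lower at an unadjusted p below 0.05, against 2.13% and 5.97% of all genes, DESeq2 called 3 and the likelihood-ratio test 1 (0.313% of all genes). Against Control, the counts higher and lower were 14 and 3 in Glutamate_vesicles, 11 and 2 in Glutamate_secret, 19 and 1 in Glutamate_BPC and 4 and 0 in Memantine, where all genes gave 3.99% and 7.61%, 4.14% and 7.61%, 3.92% and 7.42%, and 0.576% and 0.542%. Against Glutamate, they were 2 and 0 in Memantine (4.88% and 0.201% of all genes), 3 and 1 in Glutamate_vesicles (0.479% and 0.597%), 1 and 0 in Glutamate_secret (0.319% and 0.361%), and 2 and 1 in Glutamate_BPC (0.403% and 0.667%).

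The core of NF-kB signalling comprised the factors themselves, the kinases of the inhibitor and the adaptors. Its median log2 fold change was 0.67 in Glutamate against Control, and that of all genes was 0.08. Of 19 tested genes, 17 were higher, 3 of them at an unadjusted p below 0.05, against 2.13% of all genes. The share of all genes that were higher at any p was not counted, here and for the lists below. Nfkb2, which encodes the precursor of the p52 subunit, was at 21.1 ± 2.89 CPM (SD) in Glutamate and 6.12 ± 6 CPM in Control, which gave 1.74 on the log2 scale (unadjusted p = 0.01, adjusted p = 0.378 in edgeR). Ripk1, a kinase that carries the signal of the TNF receptor, was at 30.4 ± 5.14 and 15.1 ± 2.83 CPM, a value of 1.00 (adjusted p = 0.443). Against Glutamate the core list's median lay between -0.16 (Memantine) and 0.06 (Glutamate_vesicles), with -0.12 and -0.08 in Glutamate_secret and Glutamate_BPC. In Memantine against Control the core list's median was 0.39, with 19 of 19 genes higher, and that of all genes was 0.1. The part of the cell marker sums given above in the values of this list and the lists below was not tested.

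Receptors, co-receptors and decoys of the cytokines had a median of 0.75, with 12 of 15 tested genes higher. At an unadjusted p below 0.05, 1 was higher and 2 were lower, against 2.13% and 5.97% of all genes. The 2 lower genes were Ptger3, a receptor for prostaglandin E2, and Ackr1, a chemokine-binding decoy receptor. Ptger3 was at 0.913 ± 0.347 CPM in Glutamate against 3.60 ± 0.896 in Control, or -1.97 on the log2 scale (unadjusted p = 0.0026, adjusted p = 0.282 in edgeR, 0.029 in DESeq2). Ackr1 was at 2.84 ± 1.58 CPM in Glutamate, 11.6 ± 2.27 CPM in Control and 13.2 ± 14.4 CPM in Memantine, with log2 fold changes of -2.05 for Glutamate against Control and 2.23 for Memantine against Glutamate (adjusted p = 0.445 and 0.621 in edgeR).

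Among other cytokines and chemokines, 14 of 28 were tested, and their median was 0.13. Ccl7 had a log2 fold change of 3.43 in Glutamate against Control (unadjusted p = 0.00738, adjusted p = 0.364 in edgeR, 0.0385 in DESeq2) and 5.72 in Glutamate_vesicles against Control (adjusted p = 0.161 in edgeR, 1.73e-05 in DESeq2). Clcf1, a cytokine that acts through the CNTF receptor, was at 7.61 ± 2.20 CPM in Glutamate against 1.35 ± 1.38 in Control, a value of 2.43 (adjusted p = 0.364 in edgeR). The list held 3 genes higher and 1 lower at an unadjusted p below 0.05, against 2.13% and 5.97% of all genes.

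Other NF-kB target genes had a median of 0.59, with 16 of 17 higher. Of these, 4 had an unadjusted p below 0.05, against 2.13% of all genes. Ier3, an early stress-response gene, was at 1.14, 1.87 and 3.34 CPM in Control 1, 2 and 3 and 46.1, 6.73 and 8.76 CPM in Glutamate 1, 2 and 3. All Glutamate libraries lay above all Control libraries. Its log2 fold change was 3.21 (SE 0.74), with unadjusted p = 0.000547 and adjusted p = 0.261 in edgeR and 0.0032 in DESeq2. Ier3 was at 22.3 ± 0.512 CPM in Glutamate_vesicles, 25.5 ± 3.42 in Glutamate_secret and 33.9 ± 13.0 in Glutamate_BPC, and DESeq2 called it against Control in all 3 (adjusted p = 0.000937, 0.000386 and 6.81e-05), where edgeR gave 0.162, 0.126 and 0.293. Junb, an AP-1 subunit, had a value of 1.63 in Glutamate against Control (adjusted p = 0.5 in edgeR). Against Glutamate this list's median was lowest in Memantine, at -0.39, and lay at -0.07, 0.09 and 0.16 in Glutamate_vesicles, Glutamate_secret and Glutamate_BPC. In Memantine against Control the list's median was 0.38, with 14 of 17 genes higher. There Ier3, at 10.8 ± 6.83 CPM in Memantine, had a log2 fold change of 2.28 (unadjusted p = 0.00598 in edgeR), and DESeq2 did not call it.

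The prostaglandin pathway, without Ptgs2, had a median of 0.57 in Glutamate against Control, with 6 of 7 genes higher. None had an unadjusted p below 0.05, against 8.11% of all genes. Its lowest p-values belonged to Tbxas1, thromboxane synthase (log2 fold change 1.40, unadjusted p = 0.173 in edgeR), and Ptgds, a prostaglandin D2 synthase (0.94, unadjusted p = 0.44). JAK-STAT members and interferon targets had a median of 0.58, with 15 of 20 higher. Only 1 gene had an unadjusted p below 0.05, and it was higher, against 2.13% of all genes. That gene was Socs3, a feedback inhibitor of the receptors for Lif and interleukin 6, at 12.9 ± 2.00 CPM in Glutamate and 3.00 ± 2.59 CPM in Control (log2 fold change 2.02, adjusted p = 0.45 in edgeR). Stat3, the factor that these receptors activate, was at 1.13 (adjusted p = 0.661). Against Glutamate, the JAK-STAT list had a median of -0.47 in Memantine and of -0.38, -0.39 and -0.40 in Glutamate_vesicles, Glutamate_secret and Glutamate_BPC, against -0.05 to -0.01 for all genes.

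**Figure D5:**
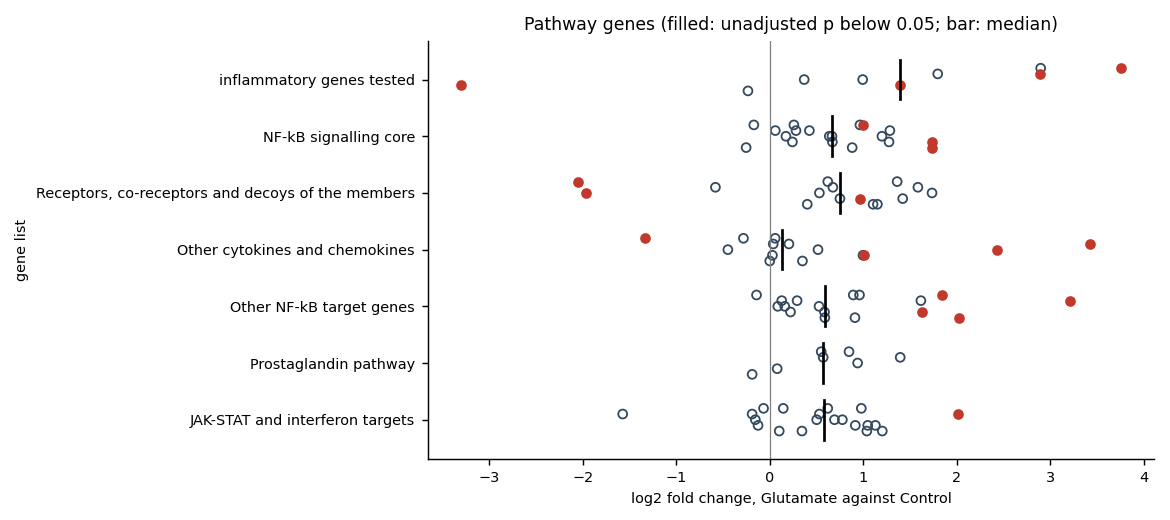
Log2 fold change in Glutamate against Control (horizontal axis) for each tested gene of 7 groups, the 9 tested inflammatory genes and 6 pathway lists, with filled points for an unadjusted p below 0.05 in edgeR and a bar at each median. Medians run from 0.13 for other cytokines and chemokines to 1.40 for the inflammatory genes.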

How the data were processed

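Gene-level RNA was measured in 18 libraries of rat cortical cultures. The deposited values are estimated counts per gene, which the authors made by trimming reads, quantifying them with Salmon against transcripts of the rat genome rn6 and summing to genes. The labels also name STAR, and no versions are given in the sources used here. The sources differ on the sequencing platform. Estimated counts can split reads between close paralogs, such as Ccl2 and Ccl7, so that part of the likeness of such genes is uncertain.

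Values were rounded to whole numbers, which changed no value of the 10 genes. The tests had been laid out for counts and were used on these rounded values. Genes were kept by filterByExpr (minimum count 10, minimum total 15), leaving 14398 of 31463. Libraries were scaled by TMM, and edgeR 4.0.16 in R 4.3.3 was fitted with 1 mean per group over all 18 libraries (glmQLFit, glmQLFTest), with Benjamini-Hochberg adjustment over all genes tested. Standard errors were derived from the F statistic, and log2 CPM used a prior count of 2. The 95% intervals of log2 fold changes used the residual degrees of freedom alone. The test adds further degrees of freedom from all genes, so these intervals are somewhat wider than its p-values imply. In data simulated for Glutamate against Control over 14398 genes, 15% of changes of 2-fold and 95% of changes of 4-fold were recovered. The simulation used the same spread for every gene, set beforehand and not estimated from these libraries. It placed changes only in genes with higher counts and held no effect of replicate number or rRNA share. The rates of the simulation therefore do not hold for genes with few counts or with a larger spread, such as Ccl2. DESeq2 1.42.0, the likelihood-ratio test, RLE factors, no filter, a replicate block, the rRNA share as covariate, rRNA rows left out and single libraries left out were alternatives.

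All 10 genes are described, with the 2 genes of smallest p in Glutamate against Control for each pathway list and the 3 genes most like each tested gene. The genes and lists were chosen with earlier results of these data known. Marker lists of other cells were summed. Itgam stands in both the receptor and the microglial list. Libraries of the same number were taken as paired where all 3 correlations of their deviations from the group means exceeded 0.1. This held for Glutamate_vesicles against Control (0.60, 0.50 and 0.21) and for Memantine, Glutamate_secret and Glutamate_BPC against Glutamate (0.44 to 0.89), and not for the other 5 comparisons. The pairing comes from these correlations, not from the labels.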

Additional observations from a re-analysis of the deposited data

How the results depend on the processing

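Il6, Il1b, Cxcl1, Cxcl10, Ptgs2 and Tnf had few counts (71 to 298 in all), and Ccl2, Icam1, Lif and Nfkbia, with 2341 to 14853, were not called either. The causes of the changes below were not tested. Of 558 values of single genes under alternatives that kept all libraries, 545 kept their direction. The number of genes called among all tested was 0 in Glutamate against Control, and 45 with the likelihood-ratio test, 232 with DESeq2 and 32 with the rRNA share as covariate. For Memantine against Glutamate it was 0, and 2 with DESeq2, 1 with the covariate and 0 to 254 with single libraries left out, 254 being without Memantine 3. For Glutamate_vesicles against Glutamate it was 0, and 2, 3 and 1 with the likelihood-ratio test, DESeq2 and the covariate. It was 0 in Glutamate_secret against Glutamate (3 with the covariate) and 0 in Glutamate_BPC against Glutamate (1 with DESeq2). For Glutamate_vesicles against Control it was 2, and 160, 495 and 57 under those 3 alternatives, and 0 to 2 with single libraries left out, 0 without any 1 of Control 1, 2 or 3 or Glutamate_vesicles 1 or 3. For Glutamate_secret against Control it was 0, and 223, 449 and 581, and for Glutamate_BPC against Control 0, and 61, 256 and 18. For any difference among the groups it was 1, and 587 with the likelihood-ratio test, 5 without the filter and 385 with the covariate. With the replicate block the counts were 166 in Glutamate, 538 in Glutamate_vesicles, 700 in Glutamate_secret and 251 in Glutamate_BPC against Control, and 497 for any difference. With the block, Ccl2 in Glutamate_vesicles against Control was 6.34 (adjusted p = 0.0233 in edgeR), and in Glutamate_secret against Control, where numbers did not pair, 3.99 (0.0495). For any difference among the groups, the adjusted p of Ccl2 in edgeR was 0.0186 with the block and 0.0394 with the covariate, and that of Lif was 0.0484 with the covariate. With the covariate, Ccl2 in Glutamate_vesicles against Control was 6.19 (adjusted p = 0.0491 in edgeR). The block changed no other call of the 9 genes, and it turned the log2 fold change of Il1b to 0.40 and of Ccl2 to 0.23 in Glutamate_secret against Glutamate, of Il1b to -0.475 in Memantine against Control and of Nfkbia to 0.31 in Glutamate_BPC against Control. With the covariate, Nfkbia turned to 0.24 in Memantine against Glutamate, 0.73 in Memantine, 0.30 in Glutamate_vesicles and 0.33 in Glutamate_BPC against Control, and Lif to -0.85 in Glutamate_vesicles against Glutamate. Cxcl10 in Memantine against Control, near 0, turned to 0.047 with the likelihood-ratio test, 0.11 with DESeq2, 0.05 with RLE factors and 1.247e-05 without the filter.

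With single libraries left out, 39 of 81 values of single genes changed direction at least once, and none gained a call. Groups left with fewer libraries shared the spread of all groups. For Nfkbia the values ran from -0.040 to 1.65 in Glutamate, -0.51 to 1.18 in Memantine, -1.17 to 0.61 in Glutamate_vesicles and -0.51 to 1.18 in Glutamate_BPC against Control, and from -0.15 to 0.68 in Glutamate_secret against Glutamate. For Cxcl10 they ran from -1.98 to 5.14 in Glutamate, -0.61 to 4.14 in Memantine, -1.465 to 3.25 in Glutamate_vesicles, -6.49 to 2.61 in Glutamate_secret and -2.47 to 2.39 in Glutamate_BPC against Control. Against Glutamate Cxcl10 ran from -1.60 to 1.98 in Memantine, -2.455 to 1.085 in Glutamate_vesicles, -7.48 to 0.46 in Glutamate_secret and -3.47 to 0.23 in Glutamate_BPC. For Il1b they ran from -3.39 to 0.49 in Glutamate, -6.58 to 0.97 in Memantine and -1.28 to 0.0021 in Glutamate_secret against Control. Against Glutamate Il1b ran from -6.355 to 3.64 in Memantine, -2.17 to 1.54 in Glutamate_vesicles, -1.045 to 2.67 in Glutamate_secret and -1.89 to 2.14 in Glutamate_BPC. Ccl2 ran from -0.066 to 2.65 in Memantine against Control, -0.70 to 1.82 in Glutamate_secret and -0.27 to 2.26 in Glutamate_BPC against Glutamate. Ptgs2 ran from -0.20 to 1.24 in Memantine against Control, -1.67 to 0.64 in Glutamate_vesicles and -0.71 to 1.16 in Glutamate_BPC against Glutamate. Cxcl1 ran from -0.72 to 0.34 in Memantine against Control, -0.58 to 0.32 in Glutamate_secret and -0.26 to 1.355 in Glutamate_BPC against Glutamate. Il6 ran from -0.86 to 0.87 in Memantine and -1.895 to 0.68 in Glutamate_vesicles against Glutamate. Lif ran from -0.76 to 0.83 in Glutamate_vesicles, -1.32 to 0.29 in Glutamate_secret and -0.15 to 0.94 in Glutamate_BPC against Glutamate. Icam1 ran from -0.89 to 0.15 in Memantine, -0.20 to 0.52 in Glutamate_vesicles, -0.63 to 0.18 in Glutamate_secret and -0.45 to 0.40 in Glutamate_BPC against Glutamate. Fits in which Il6 failed the filter gave no value for it.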
